A study of Mus musculus with 9 samples.

Results

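The miR-17-92 and miR-106b-25 clusters were followed in the small extracellular vesicles (smEVs) shed by ciliated mouse kidney cells. Their members were taken by name from the deposited count table, as the rows without a locus number. They are mmu-miR-17, mmu-miR-18a, mmu-miR-19a, mmu-miR-20a, mmu-miR-19b and mmu-miR-92a of miR-17-92, and mmu-miR-106b, mmu-miR-93 and mmu-miR-25 of miR-106b-25, so 9 of the 1164 rows. The rule that picks them uses their names and no measured value, but the members were chosen with earlier results of these data known.

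The cells were immortalised kidney medullary (KM) epithelial lines, grown to confluence and then kept without serum for 24 h, which halts the cell cycle and lets primary cilia form. The lines were Bbs4 -/-, Bbs6 -/- and wild-type (WT). Bbs4 is a subunit of the BBSome, a coat complex that moves cargo in and out of cilia, and Bbs6 resembles a chaperonin and helps the BBSome to form. Each genotype was a single established cell line sampled as 3 smEV pellets, which the labels call exosomal extracts, so the p-values below measure the spread between pellets of a line, and genotype and line cannot be told apart.

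A microRNA is a short RNA that guides a silencing complex to matching sites in mRNAs, mainly through its seed, bases 2 to 8. The miR-17-92 hairpins are cut from a single primary transcript, whose promoter is a known target of Myc, and the miR-106b-25 hairpins lie inside Mcm7, a replication licensing gene driven by E2F factors. Both clusters favour cell division. In mouse models of polycystic kidney disease miR-17-92 is raised and its loss slows cyst growth, an effect attributed mainly to miR-17 family repression of Pkd1, Pkd2 and the metabolic regulator Ppara. Kidney cysts are also a feature of Bardet-Biedl syndrome, the disease caused by loss of Bbs genes.

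The mature guides are shown because the seed families cut across the clusters and because near-identical guides limit what a count can tell apart. All 9 of 9 members had a mature sequence in RefSeq (GRCm38.p6). The rows name no arm, so the usual guide arm of each hairpin is given, 5′ to 3′, with the seed in capitals.
miR-17-5p: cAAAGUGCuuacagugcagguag
miR-20a-5p: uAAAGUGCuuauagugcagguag
miR-106b-5p: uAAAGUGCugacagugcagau
miR-93-5p: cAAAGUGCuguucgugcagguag
miR-18a-5p: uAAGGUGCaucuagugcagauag
miR-19a-3p: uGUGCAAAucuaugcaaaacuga
miR-19b-3p: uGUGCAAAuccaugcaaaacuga
miR-92a-3p: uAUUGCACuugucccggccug
miR-25-3p: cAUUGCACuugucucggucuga

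The first 4 share the miR-17 seed AAAGUGC and come from both clusters. miR-18a, which differs from that seed by a single base, has the seed AAGGUGC to itself among the members. miR-19a and miR-19b share GUGCAAA and differ at 1 of 23 positions, and miR-92a and miR-25 share AUUGCAC and differ at 3 of the 21 positions that could be compared.

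On GRCm38, the build named in the submitters' processing notes, miR-17-92 spans chr14:115043671-115044506 on the plus strand, 836 bp within an exon of the long noncoding RNA gene Mir17hg. miR-106b-25 spans chr5:138165321-138165818 on the minus strand, 498 bp, and all 3 hairpins lie in introns of the protein-coding transcripts of Mcm7. The guides of miR-19b and miR-92a are also encoded in the paralogous miR-106a-363 cluster on chromosome X, 875 bp long, so their counts could stem from either locus.

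**Figure D1:**
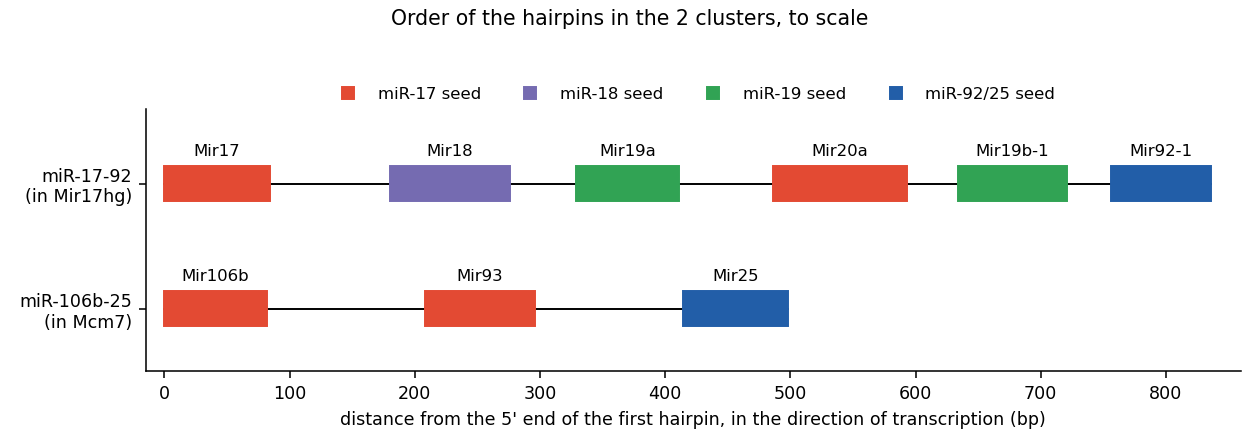
Hairpins of both clusters drawn to scale as boxes, by distance in bp from the 5′ end of the first hairpin along the direction of transcription and coloured by the seed of the guide. The 6 hairpins of miR-17-92 carry 4 seeds over 836 bp, and the 3 of miR-106b-25 carry 2 of these seeds over 498 bp.

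Library totals ran from 64118 to 130905 miRNA counts in WT, whereas those of Bbs4 -/- (176935 to 457163) and Bbs6 -/- (192654 to 423784) were all larger. Levels are given as CPM, in which edgeR's TMM factors correct the library sizes, and 3 counts, taken as the most that a count of 0 allows, were worth 6.98 to 36.5 CPM. These limits cover counting error only. Library numbers are those of the deposited columns, so the WT libraries are 1, 3 and 4, the Bbs4 -/- libraries 1, 2 and 3, and the Bbs6 -/- libraries 2, 3 and 4, and values are listed in that order. The epithelial markers miR-200a, miR-200b, miR-200c, miR-141, miR-429 and miR-205 summed to 10005 to 13305 CPM in WT, 16974 to 18926 in Bbs4 -/- and 16551 to 21413 in Bbs6 -/-, and 4 of the 6 were counted in all 9 libraries. Those of kidney tubule (miR-192, miR-194 and miR-215) were low, at 48.6 to 332 CPM in sum. Bbs6 -/- library 2 stood apart, with 32 counts of miR-200c where the other Bbs6 -/- libraries had 1069 and 1542. In WT, miR-200c had 1 or 2 counts in each library and miR-141 had 0. Of other cells, the summed markers of red blood cells reached 170 CPM, those of leukocytes 22.4 CPM and that of liver 85.1 CPM, whereas those of muscle summed to 853 to 2379 CPM. Nearly all of the muscle sum was miR-206, and miR-1a had at most 9 and miR-133a at most 2 counts in a library.

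Together the 9 members took 2.94% to 3.58% of the counts of a library. 8 of them were counted in all 9 libraries, as against 177 of the 1164 rows, and all 9 had enough counts to be tested in every comparison. miR-92a, the last hairpin of miR-17-92, led them with 13175 to 17828 CPM and ranked between 13 and 18 among all miRNAs of a library. miR-93 followed with 5799 to 10504 CPM and miR-25 with 3704 to 8603 CPM. miR-106b had 766 to 1447 CPM, miR-20a 490 to 790 CPM and miR-17 280 to 489 CPM. miR-19b had 101 to 241 CPM and miR-18a 97.0 to 278 CPM.

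miR-19a was the rarest member, with 3, 6 and 7 counts in Bbs4 -/-, 7, 6 and 9 in Bbs6 -/-, and 3, 0 and 1 in WT. Its WT libraries were all at or under the limit of 3 counts, so no fold against WT is given. In this order each member exceeded the next in 9 of 9 libraries, apart from miR-93 and miR-25, where 6 of 9 libraries had more miR-93, and miR-19b and miR-18a, where 5 of 9 had more miR-19b. Members of the same cluster thus stood far apart in counts: miR-92a made up 90.3% to 93.5% of the counts of miR-17-92 in each library. Some of the miR-92a counts could stem from the locus on chromosome X. Levels of different miRNAs also carry the ligation and amplification bias of the library kit, so the order is that of counts and not of molecules in the vesicles.

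**Figure D2:**
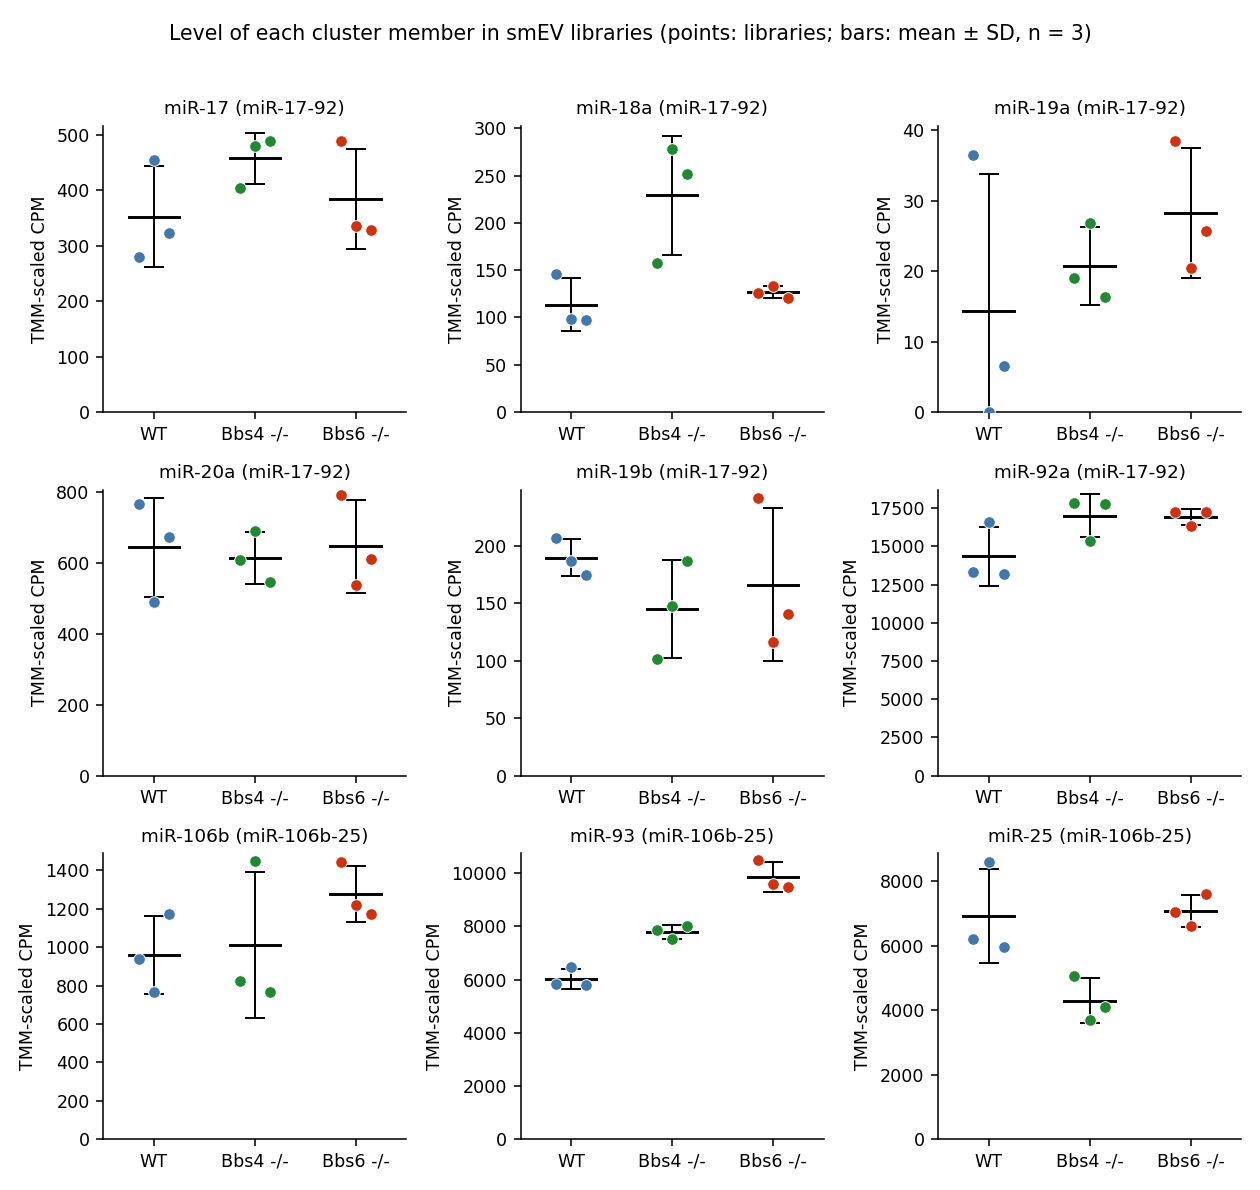
TMM-scaled CPM of each member in the 9 libraries by genotype, each panel on its own linear axis from 0; points are libraries and bars the mean and SD of 3. miR-25 lies lowest in the 3 Bbs4 -/- libraries (3704 to 5057 CPM), and miR-93 lies highest in the 3 Bbs6 -/- libraries (9500 to 10504 CPM).

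Paralogous and related rows were nearly empty. miR-106a, the counterpart of miR-17 on the X chromosome, differs from it at 1 of 23 positions, yet the table gives it 3 counts in all against 807 for miR-17. miR-363 had 2 counts in all, and miR-18b, miR-20b, miR-367 and the locus-numbered rows miR-19b-1, miR-19b-2 and miR-92a-2 had 0. miR-92b and miR-32, which share the miR-92 seed, had at most 20 and 11 counts in any library, and the locus-numbered row miR-92a-1 at most 7. In RefSeq the guides of miR-19b and miR-92a carry no locus number at either of their 2 loci. Counts of the locus-numbered rows are therefore not read as guide counts of 1 locus. Of these 11 related rows 3 could be tested, and 0 passed an adjusted p under 0.1 in any comparison by edgeR. At an unadjusted p under 0.05 the number was also 0.

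Tests were edgeR's quasi-likelihood tests, fitted on 6 libraries for a mutant against WT and on all 9 for the mutants against each other. The CPM use TMM factors taken over all 9 libraries, whereas a fit on 6 libraries takes its own. A fold against WT therefore need not equal the ratio of the CPM means. A member was counted as changed at a Benjamini-Hochberg adjusted p under 0.1, the study's threshold, taken over all miRNAs tested. The study further required a log2 fold change of 2 or more up or down, a limit that 0 of the 9 members passed in any comparison. That limit was passed by 6.17% of all miRNAs tested in Bbs4 -/- against WT, 4.03% in Bbs6 -/- against WT and 3.88% in Bbs4 -/- against Bbs6 -/-.

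In Bbs4 -/- smEVs, miR-25 was the member that fell relative to WT. It stood at 5057, 3704 and 4105 CPM in Bbs4 -/- and at 6200, 8603 and 5967 CPM in WT. Every Bbs4 -/- library thus lay below every WT library, with WT library 3 well above the others. Its mean was 4289 ± 695 CPM against 6923 ± 1459 CPM (SD, n = 3), a log2 fold change of -0.80 (SE 0.22, 95% interval -1.26 to -0.34, edgeR adjusted p = 0.0239), or 0.574-fold. This call was lost without Bbs4 -/- library 1 (log2 fold change -0.83, adjusted p = 0.103), without Bbs4 -/- library 2 (-0.61, adjusted p = 0.118) and without WT library 3 (-0.52, adjusted p = 0.124). With all 9 libraries in the fit, as for the CPM, the log2 fold change was smaller, at -0.69 (edgeR adjusted p = 0.0514). In smEV pellets, fewer vesicles of a kind and less of an RNA in each vesicle cannot be told apart.

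So 1 of 9 members was lower in Bbs4 -/- than in WT, where 6.49% of the 308 miRNAs tested were lower, and 0 of 9 were higher, where 8.77% were. DESeq2 gave the same numbers, and at an unadjusted p under 0.05 miR-18a was the 1 member higher. The libraries of both groups did not overlap for 3 of the 9 members, a share close to the 31.8% of all miRNAs tested. Besides miR-25 these were miR-18a and miR-93. miR-18a had 158, 278 and 251 CPM in Bbs4 -/- and 146, 98.0 and 97.0 CPM in WT. Its log2 fold change of 0.93 (SE 0.43, 95% interval 0.01 to 1.85) did not pass the test (adjusted p = 0.191), and the counts behind it were 11 to 15 in the WT libraries. miR-93 had 7852, 7516 and 8030 CPM in Bbs4 -/- and 5823, 6465 and 5799 CPM in WT, a log2 fold change of 0.26 (SE 0.18, adjusted p = 0.389). miR-92a, with 16994 ± 1409 CPM in Bbs4 -/- and 14349 ± 1927 CPM in WT, differed by 0.13 (SE 0.18, adjusted p = 0.701), and its interval of -0.26 to 0.53 does not reach a change of the size seen for miR-25. The other members with a usable fold, miR-17, miR-20a, miR-19b and miR-106b, lay between -0.47 and 0.27 with adjusted p of 0.492 or more.

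In Bbs6 -/- smEVs the member that changed was miR-93, the neighbour of miR-25 in Mcm7 and a carrier of the miR-17 seed. It stood at 10504, 9597 and 9500 CPM in Bbs6 -/- against the 5823, 6465 and 5799 CPM of WT. The Bbs6 -/- libraries were all higher, and the gap between the groups exceeded the range within either. The means were 9867 ± 554 and 6029 ± 378 CPM (SD, n = 3), with a log2 fold change of 0.73 (SE 0.16, 95% interval 0.36 to 1.10, edgeR adjusted p = 0.0300), or 1.66-fold. Without the Bbs6 -/- library poor in miR-200c it was 0.73 (adjusted p = 0.00490). The call was lost without Bbs6 -/- library 3 (0.64, adjusted p = 0.216) and without WT library 4 (0.64, adjusted p = 0.174). It also depended on the scaling: with total counts in place of TMM the median of all 298 miRNAs tested moved to -0.44 and miR-93 to 0.32 (adjusted p = 0.323), and with upper quartile factors miR-93 was 0.63 (adjusted p = 0.140). Relative to the median, miR-93 was 0.76 higher with total counts, as against 0.74 with TMM.

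The hairpins of both members that changed are shown with the guide arm in capitals, since they are neighbours in the same cluster, and miR-25 was the member that fell in Bbs4 -/- while miR-93 was the member that rose in Bbs6 -/- with TMM scaling.
Mir93: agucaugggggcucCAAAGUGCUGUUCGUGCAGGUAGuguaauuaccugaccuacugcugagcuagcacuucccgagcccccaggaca
Mir25: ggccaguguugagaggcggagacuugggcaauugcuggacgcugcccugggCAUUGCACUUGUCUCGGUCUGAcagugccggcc

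The guide of Mir93 occupies bases 15 to 37 of its 88 nt hairpin, on the 5′ arm, and that of Mir25 bases 52 to 73 of 84 nt, on the 3′ arm. The Mir93 hairpin lies at chr5:138165523-138165610 and the Mir25 hairpin at chr5:138165321-138165404, both on the minus strand of GRCm38.p6.

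In Bbs6 -/- 1 of 9 members was higher than in WT, where 9.73% of the 298 miRNAs tested were higher, and 0 of 9 were lower, where 5.37% were. DESeq2 gave the same numbers, and 0 were lower at an unadjusted p under 0.05. For 2 of the 9 the libraries did not overlap, against 29.2% of all miRNAs tested. The other was miR-106b, the remaining hairpin of miR-106b-25, with 1443, 1217 and 1174 CPM in Bbs6 -/- and 936, 766 and 1170 CPM in WT. The nearest Bbs6 -/- and WT libraries were almost level, and its log2 fold change of 0.42 (SE 0.27, adjusted p = 0.420) did not pass the test. miR-25 had 7030, 6593 and 7585 CPM in Bbs6 -/-, inside the range of WT, and differed by 0.06 (95% interval -0.34 to 0.47, adjusted p = 0.882), a value that became -0.35 with total counts. miR-92a differed by 0.27 (95% interval -0.08 to 0.61, adjusted p = 0.345). miR-17, miR-18a, miR-20a and miR-19b lay between -0.20 and 0.18, with adjusted p of 0.832 or more.

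The mutants differed from each other in miR-25. Its 3704 to 5057 CPM in Bbs4 -/- lay below the 6593 to 7585 CPM of Bbs6 -/- without overlap, and the log2 fold change was -0.72 (SE 0.21, 95% interval -1.17 to -0.27, edgeR adjusted p = 0.0623). Without Bbs6 -/- library 2 it was -0.79 (adjusted p = 0.0237), and without Bbs6 -/- library 4 the call was lost (-0.67, adjusted p = 0.191). miR-93 and miR-18a did not overlap either. miR-93 was at -0.34 (SE 0.17, 95% interval -0.70 to 0.02, adjusted p = 0.362) and miR-18a at 0.86 (SE 0.40, adjusted p = 0.309). miR-18a had 23, 39 and 42 counts in Bbs6 -/-, or 127 ± 6.54 CPM (SD, n = 3), a narrow band inside the range of WT.

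In that contrast 1 of 9 members was lower in Bbs4 -/-, where 3.88% of the 309 miRNAs tested were lower, and 0 of 9 were higher, where 4.21% were. None was higher with DESeq2 or at an unadjusted p under 0.05. Libraries of 3 of the 9 members did not overlap, against 22.0% of all miRNAs tested. Both comparisons with WT share the WT libraries. Their values for miR-25 were -0.80 in Bbs4 -/- and 0.06 in Bbs6 -/-, and for miR-93 0.26 and 0.73. Over the 9 members the median log2 fold change was 0.13 in Bbs4 -/- against WT, 0.18 in Bbs6 -/- against WT and -0.17 between the mutants, beside -0.02, -0.01 and 0.04 over all miRNAs tested. The medians against WT include miR-19a, whose fold there is not usable, so no lean of the members is read from them.

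**Figure D3:**
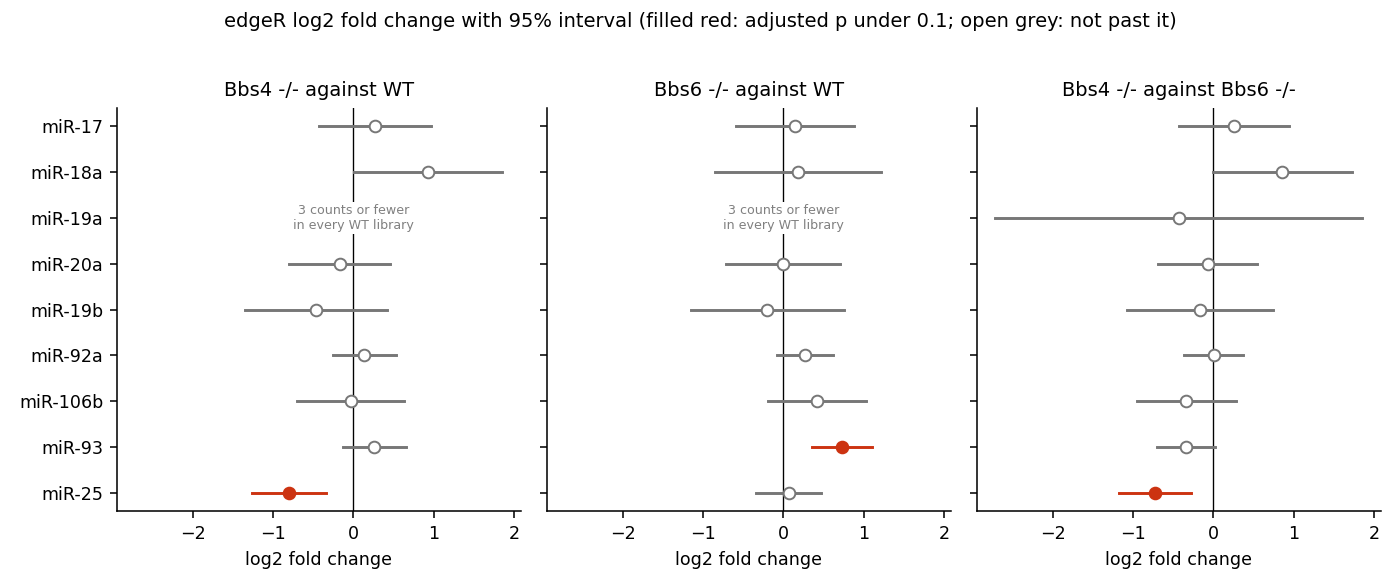
edgeR log2 fold change (x axis) of each member with its 95% interval in the 3 comparisons; filled red points passed an adjusted p under 0.1 and open grey points did not, and miR-19a is left out against WT. Only miR-25 at -0.80 and -0.72 and miR-93 at 0.73 were past the threshold, while the interval of miR-19a between the mutants ran from -2.71 to 1.85.

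Ratios of counts within a library do not depend on how libraries are scaled, and were looked at after the levels had been seen. Among WT smEVs miR-25 exceeded miR-93, with a miR-93 to miR-25 ratio of 0.939, 0.752 and 0.972. In the mutants miR-93 exceeded miR-25, with ratios of 1.55, 2.03 and 1.96 in Bbs4 -/- and 1.49, 1.46 and 1.25 in Bbs6 -/-. The pair therefore changed places in 6 of 6 mutant libraries, although WT library 4, with 897 and 923 counts, was near equality. The means were 0.888 ± 0.119 in WT, 1.85 ± 0.257 in Bbs4 -/- and 1.40 ± 0.130 in Bbs6 -/- (SD, n = 3), and no range overlapped another. The values of the pair in Bbs6 -/- depend on the scaling, since with total counts miR-93 was at 0.32 (edgeR adjusted p = 0.323) and miR-25 at -0.35 (adjusted p = 0.290) against WT. Their distances from the median of all miRNAs tested hardly did. With total counts miR-93 was 0.76 and miR-25 0.087 above it, as against 0.74 and 0.076 with TMM.

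Such separation was common in these data. Among 9045 pairs of the 135 miRNAs with a mean of at least 100 CPM and a count in every library, the ratio had ranges apart for 47.5% in Bbs4 -/- against WT, 42.7% in Bbs6 -/- against WT and 35.6% between the mutants. Among the 28 pairs of the 8 members at that level, the numbers apart were 11 (39.3%), 8 (28.6%) and 13 (46.4%). An exact permutation test of 3 against 3 libraries cannot give a two-sided p under 0.1, so none was run on the ratios.

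miR-92a and miR-25 share a seed but not a cluster, and their balance differed between the lines. The ratio of miR-92a to miR-25 ran from 3.53 to 4.33 in Bbs4 -/-, from 2.27 to 2.47 in Bbs6 -/- and from 1.93 to 2.21 in WT, again without overlap. Within miR-17-92 some ratios separated the lines and others did not. The ratio of miR-19b to miR-17 was 0.313 ± 0.0656 in Bbs4 -/-, 0.422 ± 0.0738 in Bbs6 -/- and 0.564 ± 0.165 in WT, with ranges apart between Bbs4 -/- and WT. The ratio of miR-20a to miR-17 was 1.35 ± 0.207 in Bbs4 -/-, 1.69 ± 0.140 in Bbs6 -/- and 1.97 ± 0.836 in WT, and that of miR-92a to miR-17 was 37.5 ± 6.08, 45.5 ± 9.01 and 41.6 ± 5.59, with each mutant overlapping WT in both.

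Summed over its members, miR-106b-25 stood at 13731, 12667 and 12900 CPM in Bbs4 -/-, 18977, 17406 and 18259 CPM in Bbs6 -/- and 12959, 15834 and 12935 CPM in WT. The Bbs6 -/- libraries were highest, and Bbs4 -/- and WT overlapped. miR-17-92 summed to 18460 ± 1277 CPM in Bbs4 -/-, 18279 ± 748 in Bbs6 -/- and 15661 ± 1859 in WT, where the highest WT library overlapped both mutants. These sums follow their largest members and the scaling. With total counts miR-106b-25 was level in Bbs6 -/- and WT (16277 and 16217 CPM), and miR-17-92 was higher in WT (18265 CPM) than in Bbs6 -/- (16330 CPM). The scaling-free ratio of miR-106b-25 to miR-17-92 was 0.711 ± 0.0387 in Bbs4 -/-, 0.996 ± 0.00759 in Bbs6 -/- and 0.888 ± 0.00797 in WT. It was lowest in Bbs4 -/-, where miR-25 was low, and close to equality in all 3 Bbs6 -/- libraries.

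**Figure D4:**
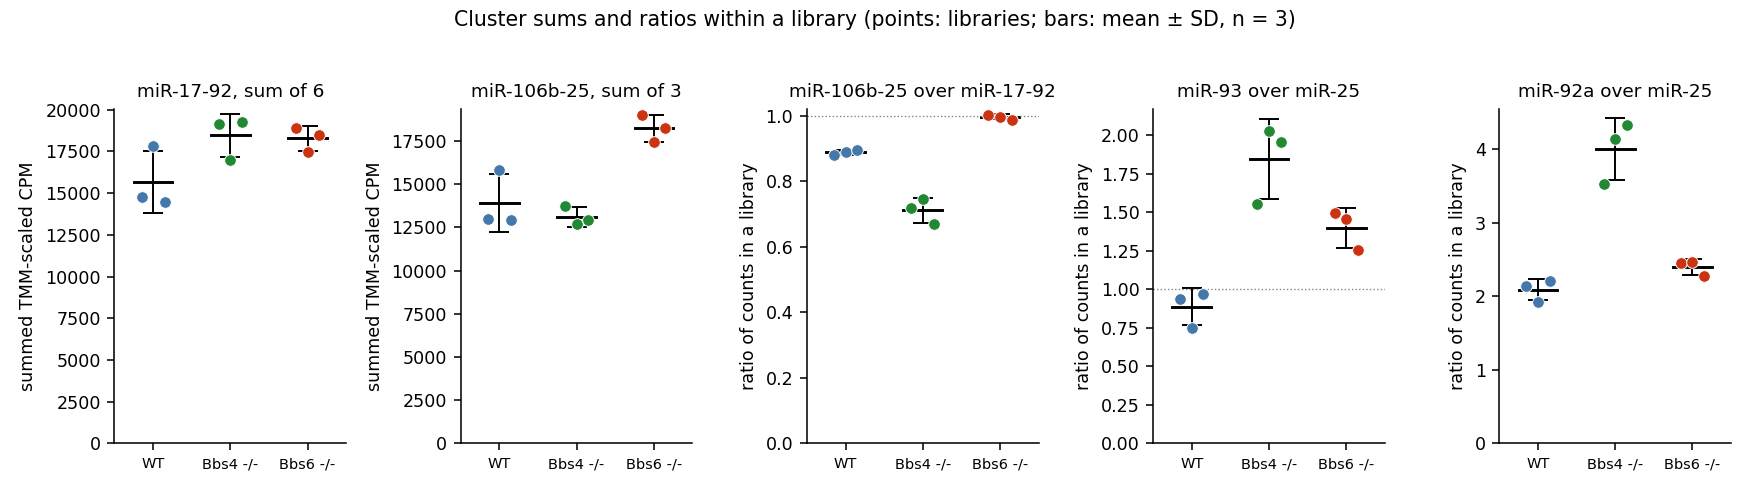
From left to right, the summed TMM-scaled CPM of miR-17-92 and of miR-106b-25 and 3 ratios of counts within a library, by genotype; points are libraries, bars the mean and SD of 3, and the dotted line marks equality. Ranges of the 3 genotypes do not overlap in any of the 3 ratios, and the miR-93 to miR-25 ratio is under 1 in WT only.

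By seed family, the 4 guides with the miR-17 seed, the family tied to cyst growth, summed to 9685, 10131 and 9829 CPM in Bbs4 -/-, 13225, 11685 and 11612 CPM in Bbs6 -/- and 7805, 8175 and 7964 CPM in WT. With TMM scaling the order Bbs6 -/-, Bbs4 -/-, WT held without overlap, at 1.53 and 1.24 times the WT mean, but with total counts the ranges overlapped (9573 to 12509, 8659 to 10612 and 8643 to 10013 CPM). Most of this sum was miR-93. Shares of the 9 members' counts need no scaling. The miR-17 seed held 31.4% ± 2.45 in Bbs4 -/-, 33.3% ± 1.65 in Bbs6 -/- and 27.2% ± 2.54 in WT. The WT range of 24.3% to 29.1% lay below both mutants, but the lowest Bbs4 -/- library, at 29.5%, almost touched it. The miR-92/25 seed held 67.3% ± 2.75, 65.8% ± 1.79 and 71.7% ± 2.72. Its WT range of 69.9% to 74.8% lay above both mutants, with the highest Bbs4 -/- library close by at 69.7%. How often shares of other miRNA groups separate in this way was not computed. The miR-18 and miR-19 seeds each held under 1% in every library, so the shares of both larger families mirror each other and show the same separation.

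The miR-106b-25 guides outnumbered their miR-17-92 relatives of the same seed. The ratio of miR-93 and miR-106b to miR-17 and miR-20a was 8.25 ± 0.506 in Bbs4 -/-, 11.0 ± 1.56 in Bbs6 -/- and 7.04 ± 0.599 in WT. Between the guides of the miR-92/25 seed the order was the reverse, with miR-92a above miR-25 in every library.

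**Figure D5:**
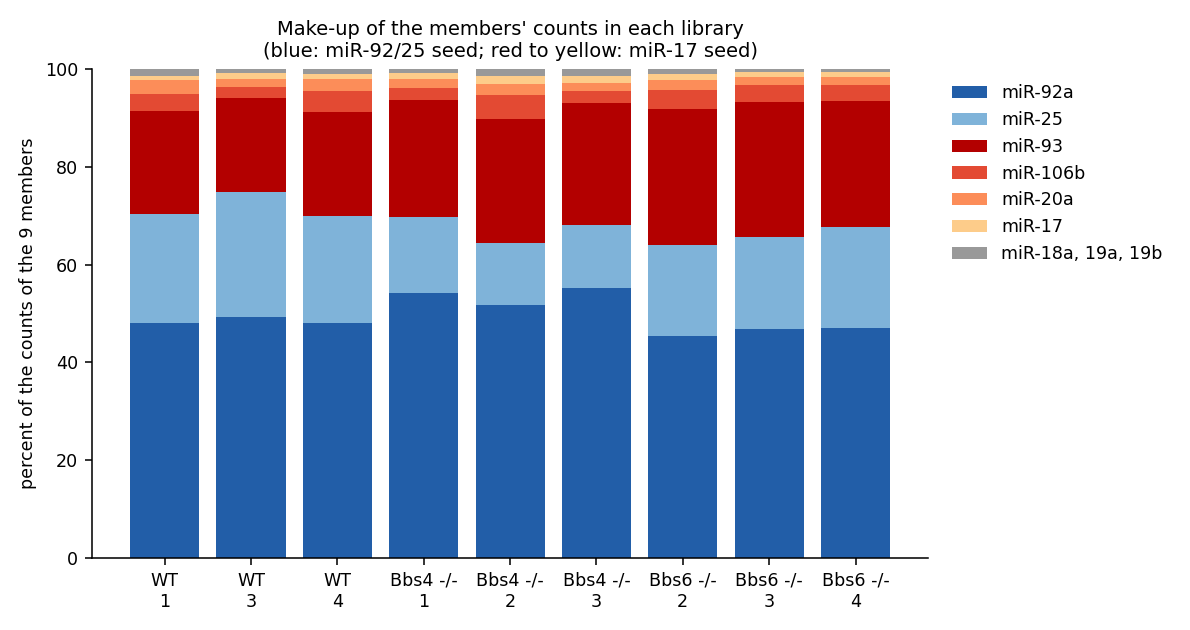
Percent of the 9 members' counts taken by each member in every library, with the libraries named by genotype and number; blue shades carry the miR-92/25 seed and red to yellow shades the miR-17 seed. The miR-25 share averages 13.5% in Bbs4 -/-, 19.4% in Bbs6 -/- and 23.3% in WT, and the miR-93 share 24.7%, 27.0% and 20.5%.

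The library-to-library pattern of each cluster sum was set against that of every miRNA outside the clusters with a mean of at least 100 CPM. The measure was the root mean square difference of log2 CPM over the 9 libraries after centring each on its mean. For miR-17-92 the closest of 134 were miR-200b (0.117), miR-674 (0.129) and miR-425 (0.194), where the median was 0.465. For miR-106b-25 they were miR-27b (0.193), miR-200b (0.195) and let-7g (0.199), where the median was 0.507. miR-200b was 1 of the epithelial markers whose sum was higher in both mutants, as described above. By itself it passed in neither comparison with WT, at 0.19 in Bbs4 -/- (edgeR adjusted p = 0.550) and 0.47 in Bbs6 -/- (adjusted p = 0.110). The marker sum also holds miR-200c, with means of 3307 CPM in Bbs4 -/-, 2748 in Bbs6 -/- and 12.1 in WT. Whether the difference in the marker sum has a part in the cluster values was not tested. Between members, leaving out miR-19a, the median of the same measure was 0.432 for 13 pairs from the same cluster and 0.465 for 15 pairs across clusters. It was 0.375 for 7 pairs with the same seed (0.282 to 0.454) and 0.465 for 21 pairs with different seeds (0.208 to 0.837). The closest pair, miR-92a and miR-93 at 0.208, shares neither seed nor cluster, so no tie to the seed is read from these medians.

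Other miRNAs with roles in polycystic kidney were read from a list of 11, of which 10 could be tested and miR-214 had 0 counts. In each comparison of a mutant with WT 3 of the 10 were higher and 0 lower by edgeR, where 8.77% of all miRNAs tested were higher in Bbs4 -/- and 9.73% in Bbs6 -/-, and between the mutants 0 passed, also at an unadjusted p under 0.05. In both comparisons the 3 were miR-21a, miR-200c and miR-141, and miR-200c and miR-141 also belong to the epithelial markers, whose sum was higher in both mutants. These last had enough counts to be tested only through the mutant libraries. The list was also chosen with earlier results of these data known, so the count of 3 is not read as a result about such miRNAs as a group. miR-21a, an antiapoptotic miRNA induced in injured and cystic kidney, had a log2 fold change of 0.84 in Bbs4 -/- (SE 0.19, adjusted p = 0.00968) and of 1.18 in Bbs6 -/- (SE 0.14, adjusted p = 0.00201). The WT counts of miR-200c and miR-141 were at or under the limit of 3, so no fold is given for them.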

How the data were processed

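Small RNA from smEV pellets was sequenced in 9 libraries, 3 per line. The deposited values are raw counts per miRNA. According to the methods and the submitters' notes, the authors trimmed adapters with cutadapt 1.9 and collapsed reads by sequence and unique molecular identifier. They counted the collapsed reads with miRDeep2 and took the highest count where a miRNA was listed more than once. Apart from that step, reads of near-identical guides could be split between rows. The miRBase release is not given in the sources used here. Replicates of a line differed by more than sampling noise (chi-square per degree of freedom 12.4 to 110 over 9 pairs), and all columns were used. Column numbers differ from those in the labels, so a column was assigned to its genotype only.

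Tests used edgeR 4.0.16 under R 4.3.3 (TMM, quasi-likelihood, Benjamini-Hochberg adjustment over all rows tested), with a total of at least 6 counts for the comparisons with WT and at least 9 for the direct contrast. The SE is the log2 fold change divided by the square root of F. Alternatives were DESeq2 1.42.0, other scalings and filters, robust spread, other libraries in the fit, an adjusted p under 0.05, a replicate block and leaving out each library. The test was tried on simulated counts. All 9 members are named, with fixed lists of related, cystic kidney and marker miRNAs and the 3 miRNAs most like each cluster sum. The members and lists were chosen with earlier results of these data known. Sequences come from RefSeq (GRCm38.p6) and gene positions from GENCODE on GRCm38. Plots used matplotlib 3.10.9 (python 3.11.15).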

Additional observations from a re-analysis of the deposited data

Results flagged for a closer look

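miR-25 stood out because it differed between the mutants: in Bbs4 -/- against Bbs6 -/- its log2 fold change was -0.72 (edgeR adjusted p = 0.0623), with all 3 Bbs4 -/- libraries below all 3 Bbs6 -/- libraries.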

How the results depend on the processing

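The fall of miR-25 in Bbs4 -/- against WT kept its direction in all 15 alternatives and passed in 12, with log2 fold changes of -0.99 to -0.52. The number of members lower there was 0 to 1 when each library was left out. The rise of miR-93 in Bbs6 -/- kept its direction in all 15 and passed in 11 (0.32 to 0.83). The number of members higher was 0 with total counts (miR-93 at 0.32, adjusted p = 0.323), 0 with upper quartile factors (0.63, adjusted p = 0.140) and 0 to 1 when a library was left out. miR-25 in Bbs4 -/- against Bbs6 -/- kept its direction in all 18 and passed in 17 (-0.90 to -0.62). Members lower there numbered 2 with DESeq2 and 2 with filterByExpr, which added miR-93 (adjusted p = 0.0782 and 0.0954), 0 at an adjusted p under 0.05, and 0 to 1 with a library left out. With total counts the cluster sums of miR-17-92 moved to 16330 CPM in Bbs6 -/- and 18265 in WT and those of miR-106b-25 to 16277 and 16217, and with upper quartile factors those of Bbs4 -/- moved to 16660 and 11809. Over all miRNAs, total counts moved the median to -0.20 in Bbs4 -/- against WT and to -0.44 in Bbs6 -/- against WT, and turned 29 higher and 16 lower calls into 11 and 27 in the latter. Signs turned only for values that passed no test, the largest being miR-92a in Bbs6 -/- against WT (0.27), and the cause was not tested. In Bbs4 -/- against WT miR-92a became -0.041 with total counts and -0.047 with upper quartile factors. There miR-106b became 0.012 with DESeq2 size factors, 0.011 with DESeq2, 0.051 without a filter and 0.077 with 9 libraries. With a library left out it ranged from -0.29 to 0.19, and miR-20a from -0.25 to 0.081. In Bbs6 -/- against WT total counts gave -0.24 for miR-17, -0.23 for miR-18a, -0.15 for miR-92a and -0.35 for miR-25. miR-25 was also -0.047 with upper quartile factors and -0.043 with filterByExpr, and miR-20a was 0.0062 with 9 libraries. With a library left out miR-17 ranged from -0.013 to 0.31, miR-20a from -0.23 to 0.22 and miR-25 from -0.10 to 0.16. Between the mutants miR-92a became -0.057 with DESeq2 size factors and with DESeq2, -0.14 with upper quartile factors, -0.12 without a filter, -0.0015 with filterByExpr and -0.15 with 6 libraries, and miR-20a 0.034 with total counts. With a library left out miR-19b ranged from -0.52 to 0.13, miR-20a from -0.32 to 0.036 and miR-92a from -0.18 to 0.020. Same-numbered libraries deviated together in some pairs and not in others (correlations of -0.133 to 0.368 over 6 pairs, 3 of them over 0.1). A partial sharing by number is thus not excluded, and the main fits did not pair libraries by number. With a replicate block the number of members called changed in no comparison (miR-25 at -0.67 and -0.78, miR-93 at 0.70), calls over all miRNAs went from 13 to 22 higher between the mutants, and miR-17 in Bbs6 -/- against WT became -0.054 and miR-92a between the mutants -0.012. Depth limits miR-19a and, in WT, miR-18a.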
